A study of Homo sapiens with 6 samples.

Results

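The genes described here are those of the aminoacyl-tRNA synthetases and of the scaffold proteins that hold some of these enzymes together, measured by RNA-seq in the human prostate cancer cell line 22Rv1. The members were chosen by name, and all 39 were found among the 57500 genes of the files: 20 genes of cytosolic synthetases, 16 of mitochondrial synthetases and 3 of scaffold proteins. All 39 passed the filter on low counts. The files use symbols without the final 1 of newer names, so that AARS stands for the gene now called AARS1. The study compared 2 groups of 3 libraries. The first group was labelled Control with the genotype "Wilde Type" and is called parental here. The other was labelled "Liver metastase drived", is called liver-derived here, and is taken from the title as 22Rv1 cells obtained from a liver metastasis. Both groups shared the line and were grown in RPMI-1640 medium with fetal bovine serum, and the labels name no drug, no transgene and no host animal. The liver-derived group stands for a single named derivation, and the labels do not say whether it was a clone or a mixed population.

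An aminoacyl-tRNA synthetase joins an amino acid to its matching transfer RNA (tRNA), the step that supplies ribosomes with charged tRNA. Most human amino acids are served by separate nuclear genes for the cytosol and for the mitochondrion. The genes GARS and KARS each give both forms, and mitochondrial glutaminyl-tRNA is made through an amidotransferase (GATB, GATC and QRSL1), which is why these amino acids have no separate mitochondrial gene among the members. The synthetases fall into classes I and II by the fold of their catalytic domain. Several cytosolic enzymes sit in the multisynthetase complex on the scaffold proteins AIMP1, AIMP2 and EEF1E1. Many cytosolic synthetase genes are known targets of ATF4, the transcription factor of the integrated stress response, a pathway that lowers general translation when amino acids are short or proteins misfold. ATF4 binds with a C/EBP partner to a composite element (CARE) near the start of its targets.

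Library totals ranged from 28395265 to 53275252 counts. After the filter, 19255 genes were tested with edgeR's quasi-likelihood test, and 38.8% of them were called at an adjusted p under 0.05, 17.5% higher and 21.3% lower in liver-derived cells. Levels are given as counts scaled to library size (CPM) after TMM scaling, which are comparable between libraries for 1 gene, and as TPM, which are divided by gene length and are comparable between genes. Parental replicate 2 stood apart from its group: its counts differed from parental replicates 1 and 3 with a chi-square per degree of freedom of 55.3 and 61.8, against 2.24 between replicates 1 and 3. The departure followed base composition, with a Spearman correlation over 19145 genes of 0.701 between GC content and the log2 ratio of replicate 2 to the mean of the other parental libraries. Counts of called members are therefore also given without this library, and the plot of fold changes marks every member's value without it; the call rate over all genes was then 59.8%, 28.8% higher and 31% lower. With an offset for GC content per library 58.5% were called, and the split moved to 35.3% higher and 23.2% lower. The offset was fitted to each library's deviation from the mean of all 6 libraries. It therefore also took up differences between the groups that follow GC content, and not only the departure of parental replicate 2. The labels call the libraries biological replicates without naming separate cultures, so the p-values measure the spread between these libraries, which may be technical. All 10 prostate epithelial markers examined had at least 1 CPM in every library, with a summed level of 3400 to 3750 CPM in parental and 3510 to 3580 CPM in liver-derived libraries. Of 17 hepatocyte markers, 14 were under 1 CPM in every library and FGA was at 0. Their summed level was 44.4 to 55 CPM in parental and 67.4 to 70.7 CPM in liver-derived libraries. Albumin (ALB) made up most of it in both, at a mean of 47.7 and 65.8 CPM. Of the 6 hepatocyte markers that passed the filter, 3 were called higher, ALB among them, and 1 was called lower. The lower one was ASGR1, a receptor of hepatocytes, which went from 1.47 to 0.178 CPM. The part of liver cells in the results below was not tested. In bulk RNA, fewer cells of a type and less RNA per cell cannot be told apart.

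The CARE core can be written TGATGNAA, with any base at N. It was searched on both strands in the RefSeq promoter windows (assembly GRCh38.p14) from 250 bases before to 50 bases after each annotated start. Of the 39 members, 33 had a window; AARS2, DARS, LARS, VARS, VARS2 and YARS had no entry. The letters were found in 7 of the 10 windowed cytosolic genes on the list of known ATF4 targets, in 0 of the 6 other cytosolic genes, in 1 of 14 mitochondrial genes and in 0 of 3 scaffold genes. Over all RefSeq promoters they were found for 1217 of 27305 genes, or 4.46%. A gene could have more than 1 window. The 10 listed genes had 15 windows, of which 7 (46.7%) held a match, and the 6 other cytosolic genes had 6. Over all RefSeq promoter windows 3.62% held a match. The windows of AARS, CARS, GARS, IARS, MARS, NARS and TARS are shown because they hold a match in genes whose RNA rose in the comparison below, with YARS2 as the mitochondrial match. Each is 30 bases long and written 5′ to 3′ on the strand of the gene, with the match in capitals, so that TTGCATCA is TGATGCAA read on the opposite strand.
AARS: ttttctcgcagTTGCATCAgccaagttaga
CARS: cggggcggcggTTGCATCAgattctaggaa
GARS: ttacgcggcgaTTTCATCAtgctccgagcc
IARS: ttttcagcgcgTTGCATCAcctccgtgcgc
MARS: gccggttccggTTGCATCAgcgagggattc
NARS: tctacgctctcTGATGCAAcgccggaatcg
TARS: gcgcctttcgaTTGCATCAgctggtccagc
YARS2: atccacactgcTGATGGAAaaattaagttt

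In GRCh38.p14 coordinates these windows are chr16:70289675-70289704 on the minus strand for AARS, chr11:3057407-3057436 on the minus strand for CARS and chr7:30594834-30594863 on the plus strand for GARS. Those of IARS and MARS are chr9:92293692-92293721 (minus) and chr12:57488053-57488082 (plus). Those of NARS, TARS and YARS2 are chr18:57621804-57621833 (minus), chr5:33440956-33440985 (plus) and chr12:32756076-32756105 (minus). The match lay within 33 bases of an annotated RefSeq start in CARS, GARS, IARS, MARS, NARS and TARS, and 187 bases upstream of it in AARS. Of these 7 ATF4-list genes, 6 carried the same letters, TGATGCAA, and GARS differed at the base marked N. This exact form, singled out after the windows were seen, was found for 295 of 27305 genes (1.08%) and in no windowed mitochondrial, scaffold or other cytosolic member. EPRS, SARS and WARS, also on the ATF4 list, had no match in any of their windows. A match is a description of letters and not of binding, which was not measured.

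Most cytosolic synthetase RNAs rose in liver-derived cells, and none of the mitochondrial ones was called higher. By edgeR's quasi-likelihood test, 14 of 20 cytosolic genes were called higher and 0 lower, with a median log2 fold change of 0.52. Of the 16 mitochondrial genes, 0 were called higher and 2 lower, with a median of -0.019, next to a median of -0.0075 over all genes tested. These counts stand beside 17.5% of all genes tested called higher and 21.3% called lower. At an unadjusted p under 0.05 no cytosolic gene was lower and 1 mitochondrial gene was higher, and DESeq2 and limma-voom also called 0 cytosolic genes lower and 0 mitochondrial genes higher. In CPM the libraries of the groups did not overlap for 15 of 20 cytosolic genes, all higher in liver-derived cells, where 54% of all genes tested were separated in either direction and 26.1% in this one. Of the mitochondrial genes, 2 were separated upward and 5 downward, where 27.9% of all genes tested were separated downward. Without parental replicate 2, 18 cytosolic genes were called higher and 1 lower, and 5 mitochondrial genes higher and 3 lower. With the GC offset, 17 cytosolic genes were higher and 1 lower, and 6 mitochondrial genes higher and 3 lower. The mitochondrial counts of 5 and 6 higher stand beside the 28.8% and 35.3% of all genes called higher in the same fits. The cytosolic median was 0.54 without parental replicate 2 and 0.61 with the offset. In the same 2 fits the mitochondrial median was -0.0079 and 0.065, and the median over all genes tested -0.0086 and 0.082. The offset thus raised the medians of both groups and of all genes. The count of mitochondrial genes called lower was 3 under 4 other settings with all libraries (limma-voom, upper-quartile factors, library size alone and no filter) and 1 without any single liver-derived library. On the deposited TPM limma called 37% of the genes tested, 15.2% higher and 21.7% lower. There 14 cytosolic genes were higher and 2 mitochondrial genes lower. No test of cytosolic against mitochondrial genes was made, because the genes were chosen with earlier results of these data known.

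**Figure D1:**
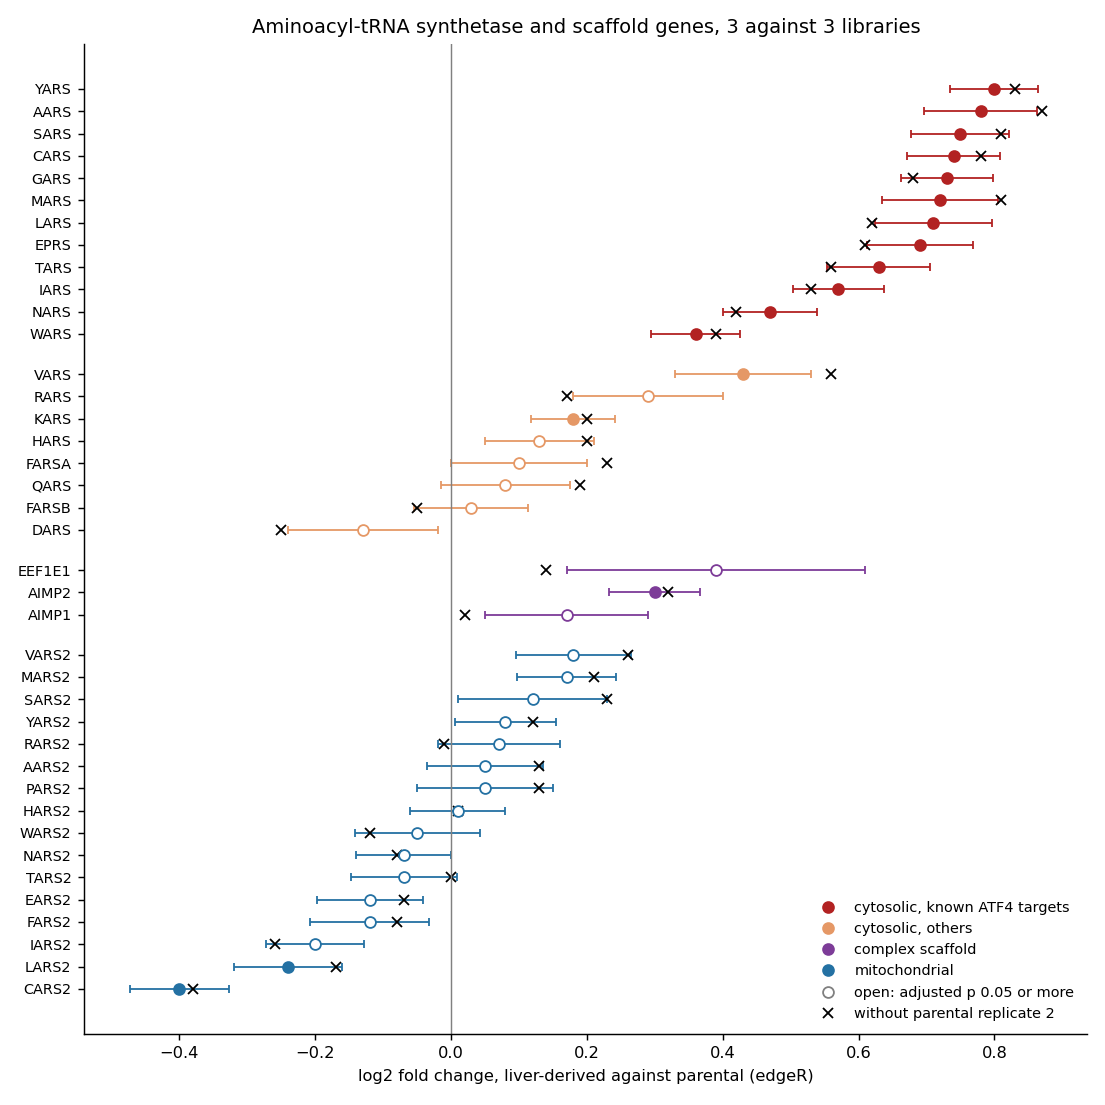
Log2 fold change of liver-derived against parental cells for each of the 39 genes, from the edgeR fit over 3 against 3 libraries. Bars are 1 SE, computed from the fold change and the F statistic of that fit. Filled points have an adjusted p under 0.05, and crosses give the value without parental replicate 2. The 12 cytosolic genes on the ATF4 list lie between 0.36 and 0.80, and the 16 mitochondrial genes between -0.40 and 0.18.

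Summed over genes and per length, the cytosolic synthetases stood at 2885, 2817 and 2905 TPM in parental replicates 1 to 3 and at 3966, 3914 and 3864 TPM in liver-derived replicates 1 to 3. Every liver-derived library was above every parental one, and the ratio of means was 1.36 (1.35 without parental replicate 2). The mitochondrial synthetases summed to 1010, 955.2 and 1028 TPM in parental and 946.8, 930.5 and 912.6 TPM in liver-derived libraries. Every liver-derived library was below every parental one here, by a ratio of means of 0.932 (0.913 without parental replicate 2), but much of the difference was that of IARS2, the most abundant of them. The other 15 genes summed to 685.3, 690.3 and 703.3 TPM against 687.8, 669.3 and 660.2 TPM, where the groups overlapped and the ratio was 0.97. The cytosolic sum was 2.86, 2.95 and 2.83 times the mitochondrial sum in the parental libraries and 4.19, 4.21 and 4.23 times in the liver-derived ones. TPM shares add to a fixed total in each library, so these sums describe shares of the RNA and not amounts per cell.

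The cytosolic genes were of unequal size of change, and most of the rise came from the ATF4 list. All 12 cytosolic genes of that list were called higher by edgeR's quasi-likelihood test, with a median log2 fold change of 0.71, against 2 of the 8 other cytosolic genes, with a median of 0.11. Over all genes tested 17.5% were called higher. The ATF4 list was written from general knowledge with earlier results of these data known, so its count is a description. Without parental replicate 2 the listed genes were again called higher in 12 of 12, and the others were higher in 6 and lower in 1. In that fit 28.8% of all genes tested were called higher and 31% lower. The listed genes summed to 1712, 1590 and 1726 TPM in parental and 2636, 2603 and 2571 TPM in liver-derived libraries, a ratio of 1.55 (1.51 without parental replicate 2). The other cytosolic genes summed to 1173, 1227 and 1179 TPM against 1330, 1310 and 1293 TPM, a ratio of 1.1 (1.12 without that library).

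YARS, the tyrosyl-tRNA synthetase (ENSG00000134684, GRCh38 chromosome 1, 32775237 to 32818153, minus strand), had the largest rise of the members in the fit over all libraries, and AARS the largest without parental replicate 2. YARS measured 162, 175 and 166 CPM in parental replicates 1 to 3 and 294, 288 and 295 CPM in liver-derived replicates 1 to 3. All liver-derived libraries lay above all parental ones, a 1.74-fold rise (log2 fold change 0.80, SE 0.065, adjusted p = 1.41e-05 by edgeR's quasi-likelihood test). AARS, the alanyl-tRNA synthetase (ENSG00000090861, chromosome 16, 70252295 to 70289543, minus strand), measured 363, 428 and 355 CPM in parental and 672, 646 and 647 CPM in liver-derived libraries. Its rise was 1.72-fold (log2 0.78, SE 0.083, edgeR adjusted p = 9.07e-05), and parental replicate 2 was the highest of its group, so that the log2 fold change without it was 0.87, above the 0.83 of YARS. Per length AARS was also among the most abundant members, at 306 ± 18.1 TPM in parental and 512 ± 12.5 TPM in liver-derived cells (SD, n = 3). SARS, the seryl-tRNA synthetase (ENSG00000031698, chromosome 1, 109213918 to 109238169, plus strand), measured 173, 194 and 175 CPM against 314, 298 and 300 CPM. CARS, the cysteinyl-tRNA synthetase (ENSG00000110619, chromosome 11, 3000922 to 3057613, minus strand), measured 72, 78.5 and 72.7 CPM against 126, 124 and 123 CPM. Both showed the same separation of the groups, with log2 fold changes of 0.75 for SARS and 0.74 for CARS (edgeR adjusted p = 4.33e-05 and 3.41e-05), and of 0.81 and 0.78 without parental replicate 2.

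GARS, which charges tRNA with glycine in the cytosol and in mitochondria (ENSG00000106105, chromosome 7, 30594681 to 30634033, plus strand), measured 214, 193 and 210 CPM in parental and 341, 346 and 336 CPM in liver-derived libraries (1.66-fold, log2 0.73, SE 0.068, edgeR adjusted p = 3.45e-05). MARS, the methionyl-tRNA synthetase (ENSG00000166986, chromosome 12, 57475445 to 57517569, plus strand), measured 222, 263 and 217 CPM against 394, 381 and 383 CPM (1.65-fold, log2 0.72, SE 0.085, edgeR adjusted p = 1.71e-04). In both genes the groups were apart, and parental replicate 2 lay on opposite sides of its group, lowest for GARS and highest for MARS; without it the values were 0.68 and 0.81. MARS shares 5.05% of its exonic bases with DDIT3 on the opposite strand, a stress gene that held 1656 to 2934 reads where MARS held 10633 to 20557; the strand setting of the counting is not given in the sources used here. LARS, the leucyl-tRNA synthetase (ENSG00000133706, chromosome 5, 146113038 to 146182660, minus strand), measured 129, 108 and 132 CPM against 201, 203 and 199 CPM (1.63-fold, log2 0.71, edgeR adjusted p = 2.14e-04). EPRS, a fused enzyme for glutamate and proline (ENSG00000136628, chromosome 1, 219968601 to 220046658, minus strand), measured 364, 313 and 371 CPM against 564, 564 and 562 CPM (1.61-fold, log2 0.69, edgeR adjusted p = 1.33e-04). TARS, the threonyl-tRNA synthetase (ENSG00000113407, chromosome 5, 33440696 to 33469539, plus strand), measured 146, 126 and 145 CPM against 216, 214 and 215 CPM (log2 0.63). IARS, the isoleucyl-tRNA synthetase (ENSG00000196305, chromosome 9, 92210207 to 92293756, minus strand), measured 305, 279 and 308 CPM against 442, 447 and 437 CPM (log2 0.57). In LARS, EPRS, TARS and IARS parental replicate 2 was the lowest library, and without it the log2 fold changes were 0.62, 0.61, 0.56 and 0.53.

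The smallest rises of the ATF4 list were those of NARS, for asparagine, with a log2 fold change of 0.47 (SE 0.069, edgeR adjusted p = 6.04e-04), and of WARS, for tryptophan, with 0.36 (SE 0.066, edgeR adjusted p = 0.00215); without parental replicate 2 they were 0.42 and 0.39. Outside the list, VARS, the valyl-tRNA synthetase, rose by 0.43 on the log2 scale (edgeR adjusted p = 0.00906). It had the highest GC content of the members' cytosolic genes, and its parental libraries read 318, 407 and 314 CPM against 480, 466 and 457 CPM. The value was 0.56 without parental replicate 2 and 0.72 with the GC offset. KARS, which supplies lysyl-tRNA to both compartments, rose by 0.18 (edgeR adjusted p = 0.0425; 0.20 without parental replicate 2); this call was lost in 9 of 17 alternative settings, where the adjusted p reached 0.165, among them those without parental replicate 1 or 3 or without any single liver-derived library.

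The other 6 cytosolic genes were not called: RARS (arginine) at a log2 fold change of 0.29, HARS (histidine) at 0.13, FARSA and FARSB (the α and β subunits of the phenylalanyl enzyme) at 0.10 and 0.03, QARS (glutamine) at 0.08 and DARS (aspartate) at -0.13. In all 6, parental replicate 2 was the parental library farthest from the others. FARSA read 241, 312 and 243 CPM in parental and 288, 282 and 283 CPM in liver-derived libraries, and DARS 47.9, 36.6 and 46.9 CPM against 38.4, 42 and 40 CPM. Without that library RARS, HARS, FARSA and QARS were called higher, at 0.17, 0.20, 0.23 and 0.19, and DARS was called lower, at -0.25 (edgeR adjusted p = 2.75e-06). FARSB was then at -0.05, on the other side of 0, and was not called. Of all genes tested in that fit, 28.8% were called higher and 31% lower. Per length FARSA was the most abundant member in parental cells, at 392 ± 41.4 TPM, and stood at 410 ± 5.87 TPM in liver-derived cells (SD, n = 3), with AARS above it there. FARSB, whose protein pairs with FARSA, was at 120 ± 16.5 and 119 ± 2.31 TPM.

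**Figure D2:**
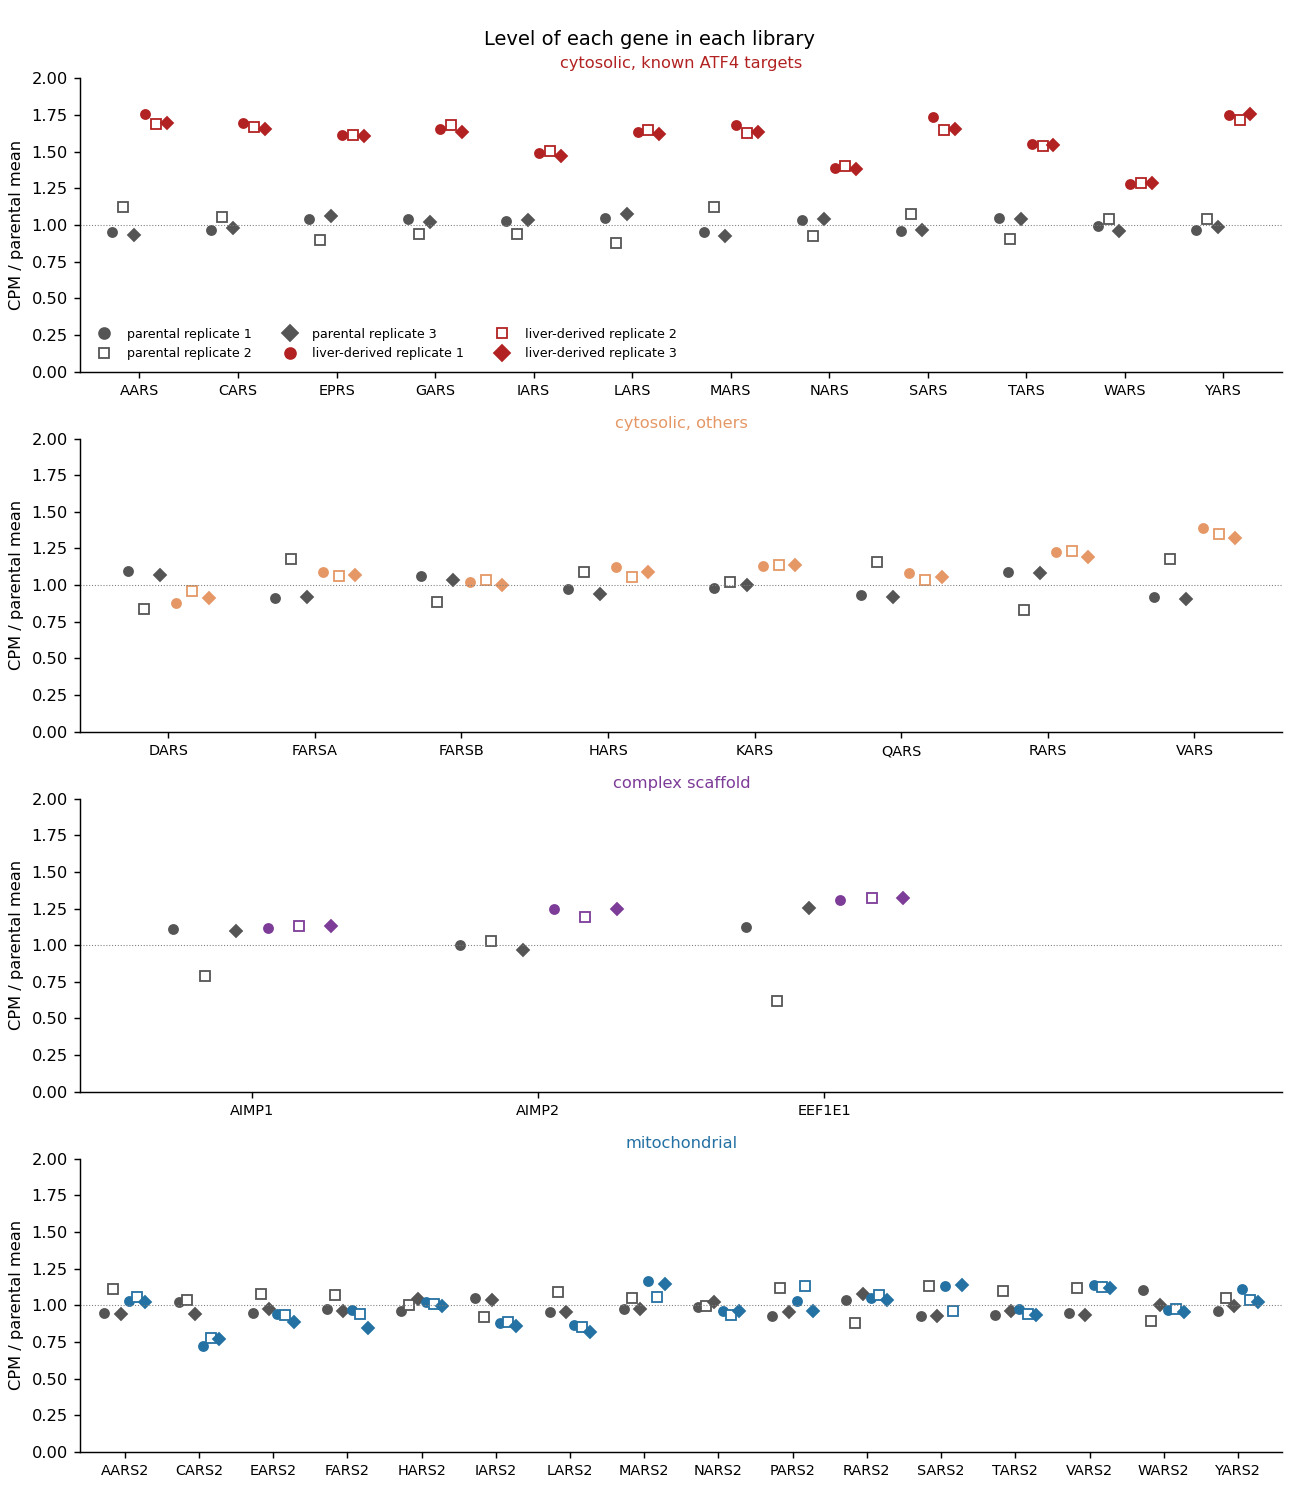
CPM of each gene in each of the 6 libraries, divided by the mean of the 3 parental libraries; gray symbols are parental, coloured symbols liver-derived, and open squares replicate 2 of either group. For all 12 cytosolic genes on the ATF4 list every liver-derived library lies above every parental one, while parental replicate 2 is the outlying gray symbol for AIMP1, EEF1E1, RARS and FARSA.

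Among the members, too, the departure of parental replicate 2 followed GC content. The Spearman correlation was 0.91 over the 39 genes, 0.932 over the cytosolic and 0.882 over the mitochondrial genes; these genes share the same 3 libraries, and the values are descriptions. The median GC content was 47.7% for cytosolic and 51.2% for mitochondrial genes, beside 48.9% for all genes tested. AT-rich genes such as EEF1E1, AIMP1, RARS and DARS read low in that library, and GC-rich ones such as VARS, FARSA and QARS read high. The ATF4-list genes lay on both sides, with AARS and MARS reading high and LARS and EPRS low, and all 12 rose with or without the library.

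**Figure D3:**
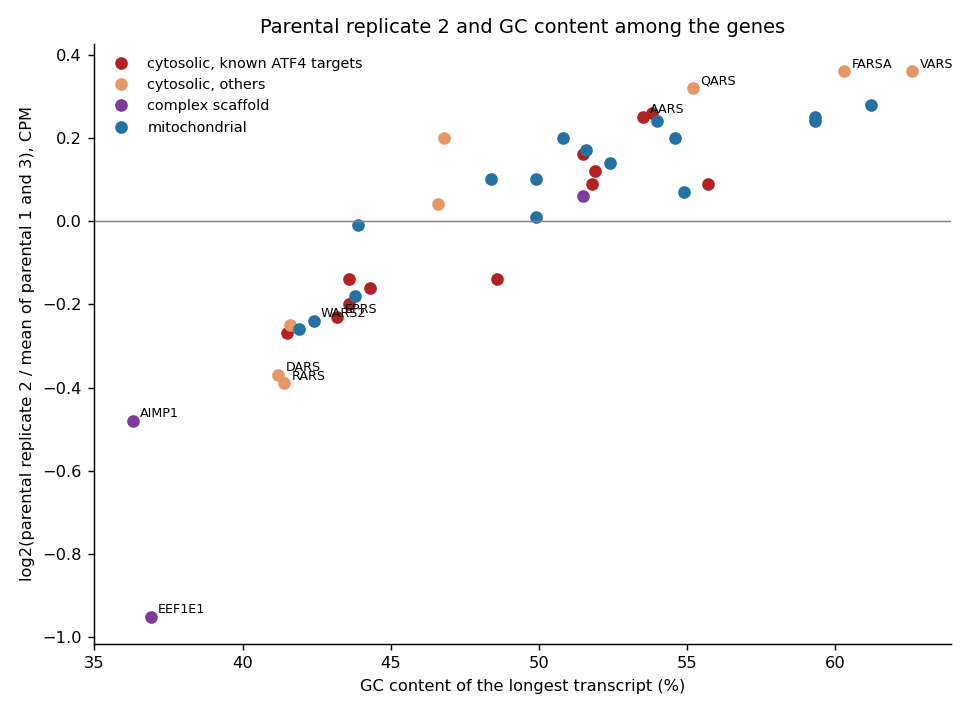
Percent GC in the longest transcript (horizontal) for the 39 genes, against the log2 ratio of parental replicate 2 to the mean of parental replicates 1 and 3 in CPM (vertical). The points rise from EEF1E1 and AIMP1 at the lower left to VARS and FARSA at the upper right, with a Spearman correlation of 0.91.

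The groups of cytosolic genes by structure overlapped in their changes. Of the 8 cytosolic genes whose enzymes sit in the multisynthetase complex, 5 were called higher (median log2 fold change 0.43), and of the 12 outside it 9 were (median 0.55). Over all genes tested 17.5% were called higher. Of the 10 class I genes 8 were called higher (median 0.63), and of the 10 class II genes 6 were (median 0.33). The fused EPRS was counted in class I alone, although its mitochondrial counterparts EARS2 and PARS2 are of class I and class II. Within the complex the 4 genes on the ATF4 list, EPRS, IARS, LARS and MARS, were all called higher, with a median of 0.70. Of the 4 complex genes off the list, DARS, KARS, QARS and RARS, KARS alone was called, and their median was 0.13. The 8 listed genes outside the complex were all called higher, with a median of 0.74. Without parental replicate 2, 7 genes in the complex were called higher and 1 lower, 11 outside it higher, 10 of class I higher, and 8 of class II higher and 1 lower. Calls were then more frequent over all genes tested too, at 28.8% higher and 31% lower.

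The 3 scaffold genes had smaller fitted changes than the 4 ATF4-list enzymes of the complex. AIMP2 (ENSG00000106305, chromosome 7, 6009245 to 6023834, plus strand) measured 83.8, 85.9 and 80.7 CPM in parental and 104, 99.6 and 104 CPM in liver-derived libraries, and rose by 0.30 on the log2 scale (SE 0.067, edgeR adjusted p = 0.00684; 0.32 without parental replicate 2). AIMP2 shares 28.94% of its exonic bases with EIF2AK1 on the opposite strand, which held 10530 to 19314 reads where AIMP2 held 2784 to 5444. EIF2AK1 rose by 0.53, and whether the counting kept the strands of the pair apart is not given in the sources used here. AIMP1 (ENSG00000164022, chromosome 4, 106315544 to 106349226, plus strand) measured 113, 80.6 and 112 CPM against 114, 115 and 115 CPM, a log2 fold change of 0.17 that was not called (edgeR adjusted p = 0.315). Only parental replicate 2 was far from the other libraries, and the value without it was 0.02. EEF1E1 (ENSG00000124802, chromosome 6, 8073360 to 8102578, minus strand) measured 16.2, 8.9 and 18.1 CPM against 18.8, 19 and 19 CPM. Its log2 fold change was 0.39 (SE 0.22, edgeR adjusted p = 0.188), and without the same library 0.14 (edgeR adjusted p = 0.046). The summed level of the scaffold genes was 321.2, 258.4 and 321 TPM in parental and 351.4, 343.9 and 349.8 TPM in liver-derived libraries.

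The mitochondrial synthetases were led by a fall of CARS2, the mitochondrial cysteinyl-tRNA synthetase (ENSG00000134905, chromosome 13, 110641412 to 110713603, minus strand). CARS2 measured 83.7, 84.7 and 77.2 CPM in parental and 59.1, 63.8 and 62.9 CPM in liver-derived libraries. The groups did not overlap, and the level was 1.32-fold higher in parental cells (log2 fold change -0.40, SE 0.073, edgeR adjusted p = 0.00217; -0.38 without parental replicate 2). LARS2, the mitochondrial leucyl enzyme (ENSG00000011376, chromosome 3, 45388506 to 45549421, plus strand), measured 82.3, 94.6 and 82.5 CPM against 75, 73.8 and 70.9 CPM and fell by 0.24 on the log2 scale (edgeR adjusted p = 0.0398). That call was lost in 4 of 17 alternative settings, 3 of which left out a liver-derived library (replicate 1, 2 or 3), and the value without parental replicate 2 was -0.17. IARS2, the mitochondrial isoleucyl enzyme and the most abundant mitochondrial member at 305 ± 34.3 TPM in parental cells (SD, n = 3), measured 367, 321 and 363 CPM against 307, 309 and 301 CPM. Its log2 fold change of -0.20 was not called (edgeR adjusted p = 0.0566), and without parental replicate 2 it was called at -0.26 (edgeR adjusted p = 7.29e-13).

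The other 13 mitochondrial genes lay between -0.12 and 0.18 on the log2 scale and were not called. EARS2 (glutamate) and FARS2 (phenylalanine) were at -0.12, TARS2 (threonine) and NARS2 (asparagine) at -0.07 and WARS2 (tryptophan) at -0.05. HARS2 (histidine) was at 0.01, PARS2 (proline) and AARS2 (alanine) at 0.05, RARS2 (arginine) at 0.07 and YARS2 (tyrosine) at 0.08. SARS2 (serine) was at 0.12, MARS2 (methionine) at 0.17 and VARS2 (valine) at 0.18. Without parental replicate 2, AARS2, MARS2, SARS2, VARS2 and YARS2 were called higher, at 0.13, 0.21, 0.23, 0.26 and 0.12, and VARS2 reached 0.39 with the GC offset. Of all genes tested without that library, 28.8% were called higher. The signs of HARS2, PARS2, RARS2, TARS2 and WARS2 changed under at least 1 alternative setting. SARS2 and WARS2 were the least abundant members per length, at 14.1 ± 1.02 and 18.3 ± 2.54 TPM in parental cells (SD, n = 3). SARS2 shares 46.18% of its exonic bases with AC011455.2 on the same strand, which held 0 reads, and 10.8% with MRPS12 on the opposite strand, which held 1981 to 3726 reads where SARS2 held 340 to 754, so its level per length is uncertain. VARS2 shares 21.99% of its exonic bases with GTF2H4, and HARS2 17.37% with HARS, whose annotated RefSeq start lies 84 bases from its own on the opposite strand.

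Set side by side by amino acid, 17 pairs of a cytosolic and a mitochondrial gene could be formed, with EPRS and FARS2 each in more than 1 pair. The log2 fold change of the cytosolic gene was the larger in all 17, with all libraries and without parental replicate 2. In parental cells the cytosolic gene had the higher mean TPM in 11 of 17 pairs (13 without parental replicate 2), and in liver-derived cells in 15. With and without that library the order of means changed for cysteine and tyrosine, and for leucine and threonine it changed only with it. CARS stood at 0.947 times CARS2 in parental and 2.09 times in liver-derived cells, with both members moving, 26.7 ± 0.272 to 43.5 ± 0.605 TPM for CARS and 28.2 ± 1.09 to 20.8 ± 0.816 TPM for CARS2 (SD, n = 3). YARS went from 0.913 to 1.51 times YARS2. LARS went from 0.95 to 1.82 times LARS2 and TARS from 0.943 to 1.52 times TARS2, and without parental replicate 2 the parental ratios were 1.05 and 1.03. In parental cells the LARS and LARS2 levels, 54.9 ± 8.01 and 57.8 ± 2.17 TPM, did not differ beyond their spread. Nor did those of TARS and TARS2, at 88.2 ± 10.6 and 93.5 ± 4.03 TPM. IARS remained below IARS2, at 0.477 and 0.815 times, and HARS below HARS2, at 0.693 and 0.752 times. The widest gaps were those of FARSA over FARS2, 13.2 and 15.4 times, SARS over SARS2, 12.1 and 18.7 times, and EPRS over PARS2, 10.5 and 16.1 times, followed by AARS over AARS2, 7.8 and 12.9 times. The pairs of a parental and a liver-derived ratio rest on the same libraries as the fold changes above and are no separate evidence.

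**Figure D4:**
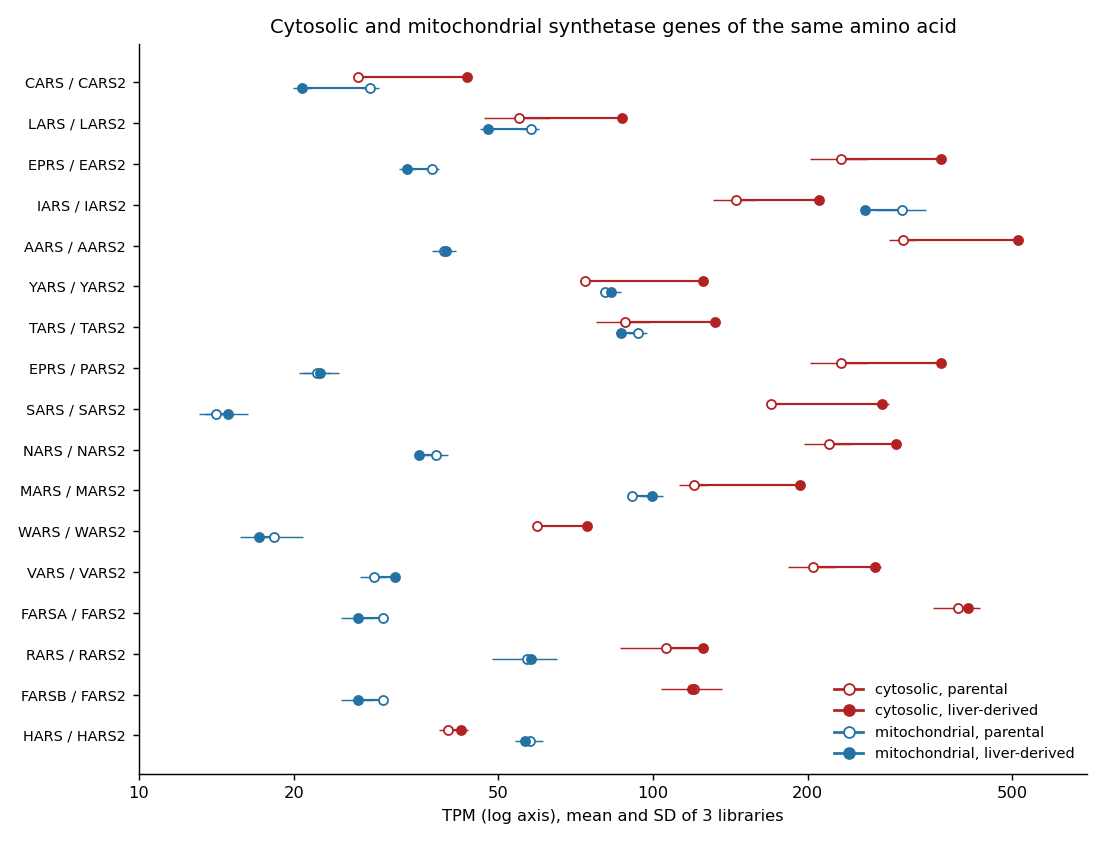
Mean TPM with SD over 3 libraries (log axis) for each cytosolic gene (red) and its mitochondrial counterpart (blue), in parental (open) and liver-derived cells (filled), ordered by the difference of their log2 fold changes. CARS and YARS start to the left of their counterparts and end to the right of them, as do LARS and TARS, whose parental ratios were 1.05 and 1.03 without parental replicate 2; HARS and IARS stay to the left.

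The other genes of the pathway were read from the same fit. Their lists were written with earlier results of these data known, so their counts are descriptions. All 18 known ATF4 targets other than synthetases were called higher by edgeR's quasi-likelihood test, with a median log2 fold change of 0.93, where 17.5% of all genes tested were called higher. The largest were the subunits of the amino acid exchanger LAT1, SLC7A5 (263 ± 28.4 to 8490 ± 110 CPM, log2 5.01) and SLC3A2 (175 ± 15.5 to 2620 ± 50.1 CPM, log2 3.90; SD, n = 3). DDIT4, an inhibitor of mTORC1 signalling, rose from 32 to 182 CPM and CHAC1, which degrades glutathione, from 4.78 to 17.9 CPM. The rises of these 4 exceeded that of every synthetase. Of 15 regulators of the integrated stress response 7 were called higher and 0 lower (7 and 0 also at an unadjusted p under 0.05, and 7 and 0 by DESeq2), with a median of 0.23. ATF4 RNA measured 460, 523 and 446 CPM in parental and 642, 644 and 646 CPM in liver-derived libraries, a log2 fold change of 0.43 (SE 0.075, edgeR adjusted p = 0.00169; 0.51 without parental replicate 2). CEBPB, a C/EBP partner, rose by 0.75, the heme-regulated eIF2α kinase EIF2AK1 by 0.53, and DDIT3, which encodes CHOP, and PPP1R15B, a phosphatase subunit that reverses eIF2α phosphorylation, by 0.52 each. ATF4 is controlled largely at translation, and its protein was not measured.

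Downstream of charging, 5 of 13 genes of cytosolic tRNA delivery and editing were called higher and 0 lower, with a median of 0.16. At an unadjusted p under 0.05 the counts were 6 and 0, and DESeq2 gave 5 and 0. XPOT, the exporter of tRNA from the nucleus and also on the ATF4 target list, read 300, 239 and 305 CPM in parental and 428, 423 and 425 CPM in liver-derived libraries (log2 0.60, edgeR adjusted p = 0.00117; 0.49 without parental replicate 2). PSTK, which acts in making selenocysteinyl-tRNA, rose by 0.60 from a mean of 1.48 CPM, a level resting on few reads. DTD2, which clears wrongly charged tRNA, rose by 0.56, and PTRH2, a peptidyl-tRNA hydrolase, by 0.43. On the mitochondrial side 4 of 23 translation factor and tRNA maturation genes were called higher and 1 lower, with a median of 0.031; the share called higher is near the 17.5% of all genes tested. GATC, a subunit of the amidotransferase that makes mitochondrial glutaminyl-tRNA, rose by 0.51 (39.2, 36.4 and 38.9 CPM against 55.4, 52 and 56 CPM). KIAA0391, a subunit of mitochondrial RNase P, rose by 0.42 and the initiation factor MTIF2 by 0.37. MTFMT, which formylates the initiator methionyl-tRNA of mitochondria, fell by 0.36 on the log2 scale (edgeR adjusted p = 0.00418). Without parental replicate 2 the counts were 8 higher and 1 lower for cytosolic delivery, 10 and 6 for the mitochondrial genes and 11 and 1 for the stress response regulators, where 28.8% of all genes tested were higher and 31% lower.

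**Figure D5:**
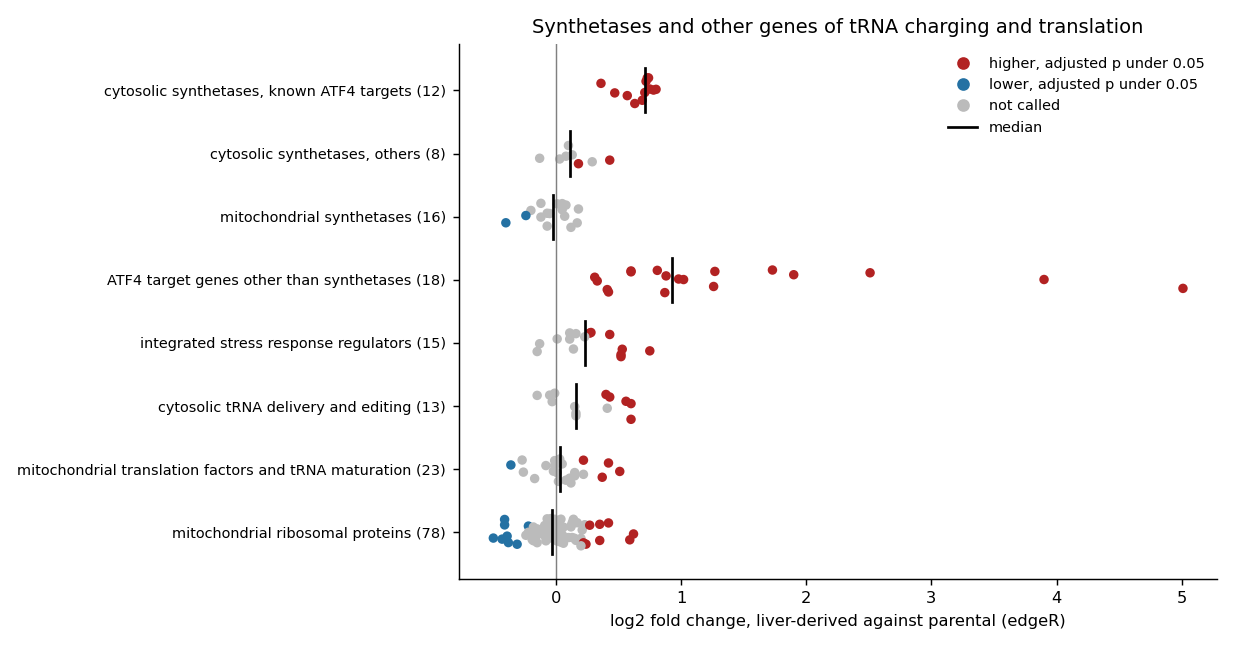
Log2 fold change of liver-derived against parental cells (edgeR) for the genes of each list, with the number tested in parentheses, the median as a black bar and calls in colour. The ATF4 targets other than synthetases extend to 5.01 with a median of 0.93, the listed cytosolic synthetases have a median of 0.71, and the mitochondrial lists centre near 0.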

How the data were processed

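RNA came from 3 parental and 3 liver-derived preparations of 22Rv1, and polyA-selected TruSeq libraries were sequenced as paired reads, per the labels' protocols. The submitters' processing notes name Trimmomatic 0.36 for the reads, STAR 2.5.2b with the build GRCh38, and featureCounts (Subread 1.5.2); the strand setting, annotation release and handling of read pairs are not given here. For each library the authors deposited raw counts, and for all libraries together 1 table of TPM. TPM recomputed from the counts and exon lengths differed from the deposited TPM by at most 4.82e-05 in relative terms, so the tables carry 1 measurement. The last 391182 lines of the TPM table named no gene and were dropped; there the deposited column of parental replicate 2 held spreadsheet errors.

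The count test was that of edgeR 4.0.16 in R 4.3.3, with filterByExpr, TMM, robust quasi-likelihood fit with group as the only term, and Benjamini-Hochberg adjustment over 19255 genes at 0.05. The biological coefficient of variation common to all genes was 9.57%. CPM values, computed here from the deposited counts, are TMM-scaled. SD is over 3 libraries. SE was computed here as the absolute log2 fold change divided by the square root of the quasi-likelihood F statistic. TPM was also tested with limma 3.58.1 on log2(TPM + 1) for genes of at least 1 TPM in 3 libraries, a scale that understates changes of low genes. On simulated data of this comparison (18939 genes) the edgeR step found 80.6% of 67 genes set to change 1.5-fold and 100% of the 67 and 66 set to change 2-fold and 4-fold, with 19 false calls. The simulated counts were drawn independently, with far fewer changed genes than were called here. They held no departure by GC content like that of parental replicate 2.

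The members and gene lists were chosen with earlier results of these data known. Every member is named; library values are given for called members with an absolute log2 fold change of at least 0.5 and for the scaffold genes, and for others where a result turns on them. Of each other list at most 4 genes are named, those past the threshold that changed most and reached 1 CPM, and ATF4; FGA was named as a hepatocyte marker at 0. Values of counterpart pairs without parental replicate 2, and the mitochondrial sum without IARS2, were added after the data were seen. GC content of the longest transcript was available for 98.9% of genes. Same-numbered libraries of the 2 groups had correlations of deviations from their group means of -0.00842, 0.00925 and 0.0722, and the main fit had no term for pairs. With parental replicate 2 so far from its group, a weak shared batch could not be seen in these values. Alternatives were RLE and upper-quartile factors, library size alone, no filter or at least 1 CPM in 3 libraries, DESeq2 1.42.0, limma-voom, a GC offset (mgcv 1.9.3), a replicate block, each library left out and both second replicates left out.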

Additional observations from a re-analysis of the deposited data

How the results depend on the processing

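Of the 17 members called, 15 kept their call and direction in all 17 alternatives to the count fit; KARS lost its call in 9 and LARS2 in 4, and no called member reversed. Leaving out each library in turn gave 13 to 18 cytosolic genes higher and 0 to 1 lower, 0 to 5 mitochondrial genes higher and 1 to 3 lower, 1 to 2 scaffold genes higher, and 2432 to 5714 genes higher and 3168 to 6156 lower over all genes; each upper end came without parental replicate 2. Without both second replicates, 5759 of all genes were higher, with 1 cytosolic gene lower, 5 mitochondrial genes higher and 2 scaffold genes higher. The GC offset gave 6768 of all genes higher, 1 cytosolic gene lower, 6 mitochondrial and 3 scaffold genes higher, and with the replicate block added 6692, 6 and 3 were higher. No filter gave 2 scaffold genes higher. The replicate block alone gave 3169 higher and 3883 lower over all genes, 13 cytosolic genes higher and 1 mitochondrial gene lower, with KARS and LARS2 no longer called; not every library correlated best with its own number. Of the uncalled members 6 changed sign. Over the fits that each left out 1 library, FARSB ran from -0.053 to 0.074, HARS2 from -0.025 to 0.039, PARS2 from -0.00064 to 0.13, RARS2 from -0.013 to 0.13, TARS2 from -0.12 to -0.0025 and WARS2 from -0.12 to 0.02. Without both second replicates FARSB was at -0.051, RARS2 at -0.012 and TARS2 at 0.014. FARSB was at -0.027 and HARS2 at -0.041 with library size alone, HARS2 at -0.0014 with upper-quartile factors and -0.0016 with no filter, and TARS2 at 0.059 with the GC offset, with or without the block. The cause was not tested. Without parental replicate 2, an alternative chosen after seeing the data, the cytosolic gene had the higher parental TPM in 13 of 17 pairs in place of 11. On the TPM table limma called 15 members higher and 2 lower, 14 and 2 without a filter, and 15 and 2 with a pseudocount of 0.1. In the first of these fits 15.2% of all genes tested were called higher and 21.7% lower. In the simulated data 80.6% of changes of 1.5-fold were recovered. That share does not set a limit for the real data, where WARS was called at 1.29-fold and kept its call in all 17 alternatives.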

Other observations

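The mitochondrial ribosomal proteins, which decode with the mitochondrial synthetases' products, were called in both directions in equal number. Over all genes tested 17.5% were called higher and 21.3% lower. Of 78 genes whose symbols start with MRPL or MRPS, 8 were called higher and 8 lower by edgeR's quasi-likelihood test, and 62 were not called; their log2 fold changes had a median of -0.035 and ran from -0.50 to 0.62. The largest rises were MRPL39 (40.2, 35.6 and 39.5 CPM in parental, 61.5, 57.7 and 58.4 CPM in liver-derived libraries, log2 0.62) and MRPS35 (147, 115 and 150 CPM against 206, 207 and 207 CPM, log2 0.59). The largest falls were MRPL11 (87.8, 107 and 87 CPM against 67.8, 66 and 64.6 CPM, log2 -0.50) and MRPL24 (182, 251 and 187 CPM against 152, 152 and 156 CPM, log2 -0.43). Parental replicate 2 was the outermost library of its group in all 4. Without it 26 of the 78 were higher and 21 lower, beside 28.8% and 31% of all genes, and with the GC offset 30 and 10, beside 35.3% and 23.2% of all genes. The part of GC content in these counts was not tested further.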
